A study of Mus musculus with 17 samples.

Results

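Nuclear receptors are transcription factors, most of which bind DNA through paired zinc fingers. Many are switched by small fat-soluble ligands such as retinoic acid, vitamin D, oxysterols and steroids. RXR proteins are the shared dimer partners of many members of the Nr1 subfamily, and several other members are orphans with no established ligand. In embryonic stem cells Nr5a2 and Nr6a1 are known regulators of the Oct4 gene itself, the former as an activator and the latter as a repressor during differentiation. The 44 genes described here were taken by gene symbol, and the list was chosen with earlier results of these data known. It holds 18 of subfamily Nr1, 11 of Nr2, 7 of Nr3, 3 of Nr4, 2 of Nr5, 1 of Nr6 and 2 of Nr0. The arrays had 16593 genes with a named probe.

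The study asked what Oct4 alone does early in reprogramming, and gave 17 mouse Illumina expression arrays, 1 for each condition. Cells called TO, for tetracycline Oct4, came from 3 cell types: MEF (mouse embryonic fibroblasts), NSC (neural stem cells) and BMC (cells of the bone marrow). Each TO line was sampled at 0, 6, 12 and 24 h. The controls, called Ctrl, were MEF and NSC of the wild type, untreated and after 24 h of treatment, and untreated embryonic stem cells (ESC) gave 1 array. BMC had no wild-type array. The labels mark the TO arrays at 0 h as treated, and do not name the inducing compound, the strain, the number of animals or whether a line was 1 clone. With 1 array per condition, the spread in every test below is that between times about a fitted course, or between arrays of a cell type, and a change at a single time has no test. The p-values measure only this spread, which may be technical.

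Oct4 itself (Pou5f1) had a log2 signal of 8.41 in TO MEF at 0 h and 14.02, 14.33 and 14.49 at 6, 12 and 24 h. In TO BMC it was not detected at 0 h and reached 11.09, 11.08 and 10.85. In TO NSC it was not detected at 0 h and reached 10.24, 11.20 and 10.22, against 12.94 in ESC, and it was not detected on any wild-type array. TO MEF at 0 h thus already carried Pou5f1 signal. Between 10231 and 11082 of 25697 probes were detected per array. The mean raw intensity of the 4 TO MEF arrays, from 382 to 437, was below the 548 to 672 of the other 13. The cell-type labels were checked on marker genes: 9 of 9 ESC markers were detected in ESC, 11 to 12 of 12 fibroblast markers in MEF, 9 of 10 neural stem cell markers in NSC (Pax6 was not detected) and 8 to 10 of 10 blood markers in BMC. BMC arrays also carried 6 to 8 of the 12 fibroblast markers.

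Of the 44 receptor genes, 41 had a listed probe, and Nr1h2, Nr2e3 and Nr3c2 were not analysed here. A signal was called detected where the array's detection p was below 0.01, and 24 of the 41 were detected on at least 1 of the 17 arrays, which is 58.5% against 63.7% of all genes. Detected on all 17 arrays were 3 of the 41 receptors, where 31.3% of all genes were. The 3 were Rxrb, which encodes an RXR dimer partner, Nr2f6, which encodes the orphan receptor EAR2, and Esrra. Esrra encodes the estrogen-related receptor alpha known for its role in mitochondrial genes. Each array detected 10 to 15 receptors. The 17 receptors that no array detected were Thrb, Ppara, Ppard, Nr1h4, Nr1i2, Nr1i3, Rxrg, Nr2c2, Esr1, Esr2, Esrrg, Pgr, Nr4a1, Nr4a3, Nr5a1, Nr0b1 and Nr0b2. The lowest detected log2 signal was between 5.36 and 5.67 over the arrays, so these genes could lie below that level rather than be absent. By subfamily, 11 of 17 Nr1 genes with a probe were detected, 8 of 10 of Nr2, 2 of 6 of Nr3, 1 of 3 of Nr4, 1 of 2 of Nr5, 1 of 1 of Nr6 and 0 of 2 of Nr0.

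**Figure D1:**
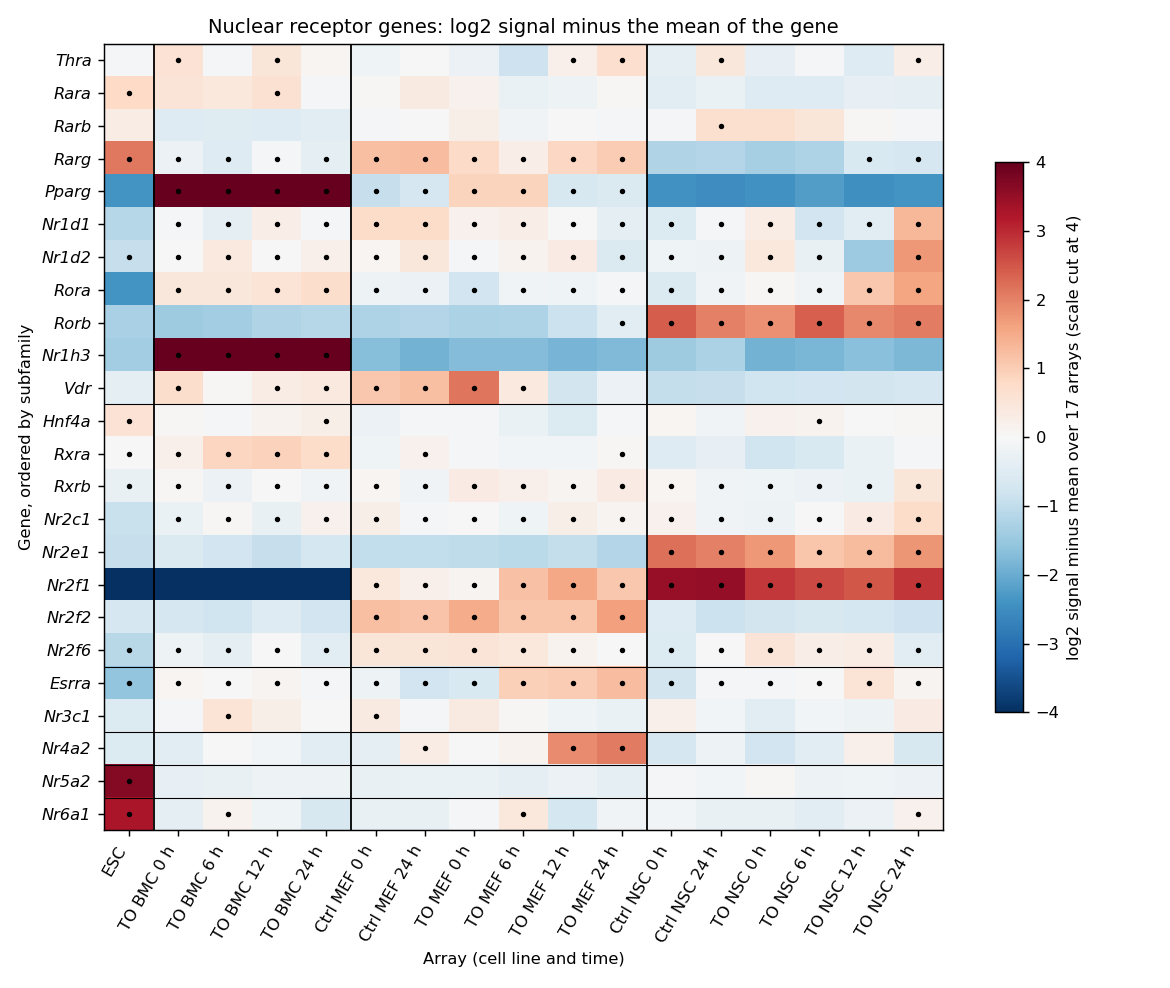
Log2 signal of the 24 detected receptor genes (rows, by subfamily) on the 17 arrays (columns), minus each gene's mean over the arrays, with colours cut at 4. A black dot marks detection. Nr1h3 and Pparg stand out in the 4 BMC columns, Rorb and Nr2e1 in the 6 NSC columns, Nr2f2 in the 6 MEF columns, and Nr5a2 and Nr6a1 in ESC.

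The promoters of the receptors were read for the hexamer that most receptors of this superfamily bind, to show where in the sequence of these genes it lies. In the 250 bases before the RefSeq start (GRCm38.p6), AGGTCA on either strand was found in 11 of 61 promoters of 41 receptor genes, or 18%, against 14.0% of 32851 promoters in all. The 10 genes were Nr0b1, Nr1d2, Nr1h4, Nr5a2, Nr6a1, Pparg, Rarg, Rxra, Rxrg and Thrb. No promoter was available for Thra, Nr3c1 and Nr5a1, so the 41 genes read here are not the 41 with a listed probe. The windows below belong to the members whose levels the following paragraphs turn on, written 5′ to 3′ on the strand of the gene, with the hexamer in capitals (TGACCT is the hexamer on the other strand).
Nr5a2, chr1:136960480-136960539, minus strand: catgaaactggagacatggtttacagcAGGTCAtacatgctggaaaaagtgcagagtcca
Nr6a1, chr2:38784528-38784587, minus strand: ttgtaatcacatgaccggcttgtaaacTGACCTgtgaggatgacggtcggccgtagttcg
Nr6a1, chr2:38784574-38784633, minus strand: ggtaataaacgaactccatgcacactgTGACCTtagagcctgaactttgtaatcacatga
Pparg, chr6:115361089-115361143, plus strand: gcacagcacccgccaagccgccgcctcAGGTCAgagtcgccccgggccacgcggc
Pparg, chr6:115362313-115362348, plus strand: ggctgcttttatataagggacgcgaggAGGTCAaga
Rarg, chr15:102257715-102257772, minus strand: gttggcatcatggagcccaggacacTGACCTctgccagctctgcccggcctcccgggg
Nr1d2, chr14:18239151-18239210, minus strand: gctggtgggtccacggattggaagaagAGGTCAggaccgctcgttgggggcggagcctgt
The hexamer lies 64 bases before the start in Nr5a2, 45 and 91 in Nr6a1, 28 and 9 in 2 promoters of Pparg, 225 in Rarg and 77 in Nr1d2. The octamer ATGCAAAT, which Oct4 and other POU proteins bind, was in 0 of the 61 receptor promoters and in 1.60% of all. The E-box CACGTG was in 5 of the 61, or 8.20%, against 6.02% of all. A match is a description of these letters and not of binding, and no match says only that they are not in this window.

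Among the MEF and NSC arrays without induced Oct4, receptors that clearly differed were Rorb, Nr2e1 and Nr2f1, higher in NSC, and Rarg, Pparg, Vdr and Nr2f2, higher in MEF. Rorb encodes an orphan receptor known from the retina and cortex, Nr2e1 encodes TLX, known for keeping neural stem cells in cycle, and Nr2f1 and Nr2f2 encode COUP-TFI and COUP-TFII. Between NSC and MEF, with 3 arrays each, 8 of 24 receptors passed an adjusted p below 0.05 (limma, over all 15543 detected probes), where 39.2% of all probes did. Receptors detected in only 1 cell type entered the test through that cell type, so the count is a description.

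Rorb was 7.83, 8.43 and 8.02 in TO NSC at 0 h, wild-type NSC at 0 h and wild-type NSC at 24 h, and was not detected in MEF at 4.75, 4.75 and 4.83. Its difference was 3.31 ± 0.19 (SE, limma adjusted p = 1.79e-05), at least 6.05-fold. Nr2e1 was 7.52, 8.0 and 7.80 in the same NSC arrays and not detected in MEF at 4.76 to 4.80, a difference of 2.99 and at least 4.85-fold. Nr2e1 passed the detection filter through NSC arrays alone, so its difference is a description. Nr2f1 was detected in both, at 12.26, 12.92 and 12.94 in NSC and 9.54, 9.85 and 9.64 in MEF, which is 8.14-fold higher in NSC (limma adjusted p = 6.3e-05). Its relative Nr2f2 ran the other way, with 6.72, 6.44 and 6.37 in MEF and no detection in NSC (4.49, 4.72 and 4.36), at least 2.02-fold. Nr2f2 passed the filter through MEF arrays alone, so this too is a description.

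Rarg, the retinoic acid receptor gamma gene, was 7.04, 7.47 and 7.51 in MEF and not detected in NSC at 4.93, 5.05 and 5.07, at least 3.59-fold (limma adjusted p = 7.03e-05). Vdr, the vitamin D receptor gene, was 7.58 in TO MEF at 0 h and 6.51 and 6.64 in wild-type MEF, with no detection in NSC (4.62, 4.47 and 4.50), at least 2.67-fold (limma adjusted p = 0.000681). Pparg, the gene of the adipocyte and macrophage receptor PPAR gamma, was 7.74 in TO MEF at 0 h against 5.92 and 6.17 in wild-type MEF, and was not detected in NSC (4.41, 4.42 and 4.36), at least 2.16-fold (limma adjusted p = 0.00729). For Pparg and Vdr the TO line was therefore above the wild-type line of the same cell type before the time course began, and line, culture and Pou5f1 signal at 0 h cannot be told apart. Rara, the retinoic acid receptor alpha gene, was called as lower in NSC (limma adjusted p = 0.0205) but was not detected in either cell type, and its call was lost without wild-type MEF at 24 h or wild-type NSC at 0 h (up to 0.0809 over all alternatives).

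The receptors called as higher in BMC were Nr1h3 and Pparg. Nr1h3 encodes LXR alpha, the oxysterol receptor of macrophages and liver, and its signal was 11.70, 11.96, 11.68 and 11.66 on the 4 BMC arrays and below detection on the other 13. At 0 h it was at least 73.6-fold above MEF. Pparg was 11.32, 10.97, 11.34 and 11.55 in BMC, and at 0 h 26.3-fold above the MEF mean and at least 56.9-fold above NSC. Nr1h3 passed the detection filter through the BMC arrays alone, so its difference is a description. In limma, with the 1 BMC array assumed to vary like the others, BMC was above the mean of MEF and NSC by 7.07 for Nr1h3 and 5.82 for Pparg. It was lower for Rorb, Nr2e1, Nr2f1 and Nr2f2, so that 6 of 24 receptors were called where 40.4% of all probes were. Rorb, Nr2e1 and Nr2f2 were not detected in BMC at 0 h, and each was also at background in either MEF or NSC. Their calls thus repeat the differences between MEF and NSC above. Nr2f1 was not detected on any BMC array (4.56, 5.27, 5.11 and 5.25), against 9.54 or more in MEF. Rxra, another RXR gene, was 5.63, 6.28, 6.36 and 6.17 in BMC and at most 5.59 elsewhere, with no call.

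The blood markers were also high in BMC: their summed log2 signal was 103, 102, 94.9 and 87.8 at 0, 6, 12 and 24 h, with Mpo and Elane not detected at 24 h, and 44.7 to 51.4 on the other arrays. Of 4 adipocyte markers, 1 was detected in BMC at 0 h (Adipoq) and 0 at 6, 12 and 24 h. Their summed log2 signal was 18.5 to 20.2 in BMC, against 18.1 to 19.5 in MEF and NSC. Fibroblast markers were detected in BMC and 3 of 4 B cell markers as well. The part of other cell types in the BMC levels was not tested, and fewer cells of a type and less RNA per cell cannot be told apart.

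Known LXR target genes split in BMC. Over the 9 measured, the median difference of BMC from the mean of MEF and NSC was -0.05, against -0.14 over all probes. The cholesterol transporter gene Abcg1 was 9.61 at 0 h and the phospholipid transfer protein gene Pltp 13.41, with Apoe and Lpl also higher, by 5.58 (limma adjusted p = 0.000395) and 6.07 (6.84e-06). The fatty acid desaturase genes Scd1 and Scd2 were lower by limma, by -4.61 and -3.80, and so were Srebf1 and Lpcat3. Over 11 measured PPAR target genes, the median of the same difference was 0.82, with genes in both directions. The fatty acid transporter gene Cd36 was 6.26 at 0 h and not detected in MEF or NSC, and the lipid droplet gene Plin2 was 11.43 in BMC against 5.31 to 8.25. Cd36 and Plin2 were picked among the higher genes, are outside the naming rule for related lists and do not stand for the PPAR list. Apoe, Lpl and Cd36 are also known macrophage genes.

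ESC had the highest signal of any array for Nr5a2, Nr6a1 and Rarg and the lowest for Rora. Nr5a2, which encodes LRH-1, was 8.35 in ESC and was not detected on any of the 16 somatic arrays, at least 7.24-fold. Nr6a1, which encodes germ cell nuclear factor, was 8.85 in ESC and between 4.88 and 6.00 elsewhere, at least 10.2-fold above MEF and NSC without induction. Rarg was 8.38 in ESC, 2.05-fold above the MEF mean and 5.09-fold above BMC at 0 h, and a further Rarg probe was at 9.04. Rora, the gene of a retinoic acid receptor-related orphan receptor that activates clock genes, was not detected in ESC at 4.55 and lay between 6.16 and 8.50 on the 16 somatic arrays. Nr2f1 was not detected in ESC at 4.60, at least 19.3-fold below MEF, and it was not detected in BMC either.

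Against the mean of MEF and NSC, with 1 ESC array assumed to vary like the rest, 15 of 24 receptors were called by limma where 40.0% of all probes were. Nr5a2 passed the detection filter through the ESC array alone, so this count is a description. The 5 higher were Rara, Rarg, Hnf4a, Nr5a2 and Nr6a1, and the 10 lower were Nr1d1, Nr1d2, Rora, Rorb, Nr2c1, Nr2e1, Nr2f1, Nr2f2, Nr2f6 and Esrra. Esrra, at 7.86 in ESC, was lower by 1.04 than the MEF mean and detected everywhere. Nr2f6, at 8.59, was 3.04-fold below the MEF mean and 2.12-fold below NSC. Rorb, Nr2e1 and Nr2f2 were below the mean of MEF and NSC, and each was at background in ESC and in 1 of those 2 cell types, so their calls repeat the differences above. The calls of Rara and Hnf4a rested on low signals of 5.70 and 5.95. The Hnf4a call was lost without any 1 of the 4 wild-type arrays, that of Nr1d2 without either wild-type MEF array and that of Esrra without wild-type NSC at 24 h, with limma adjusted p up to 0.14, 0.0812 and 0.0505 over all alternatives.

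**Figure D2:**
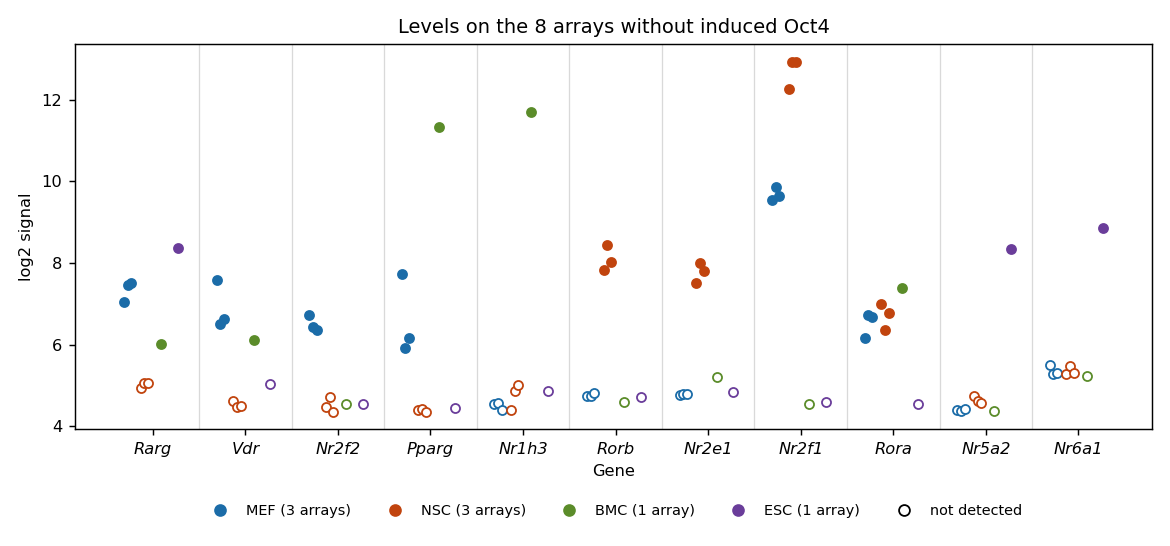
Log2 signal of 11 receptor genes on the 8 arrays without induced Oct4 (3 MEF, 3 NSC, 1 BMC and 1 ESC). Each point is 1 array and open points were not detected. Nr5a2 and Nr6a1 are filled in ESC alone, Nr1h3 in BMC alone, and the highest MEF point of Pparg and of Vdr is TO MEF at 0 h.

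In induced MEF the vitamin D receptor and PPAR gamma genes fell, and the orphan receptor gene Nr4a2 rose. The fitted change over 24 h passed an adjusted p of 0.05 (limma) for these 3 of 24 receptors, where 11% of all probes passed. The median over the 24 was -0.03, against -0.01 over all probes. Wild-type MEF after 24 h of treatment had 0 of 24 receptors past 2-fold, where 0.212% of all probes were past it.

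Markers of other cells also differed over this course. The summed log2 signal of 6 neuron markers was 34.6, 40.5, 46.4 and 49.0 in TO MEF at 0, 6, 12 and 24 h, with 2, 4, 5 and 4 detected, and 42.6 and 42.5 in wild-type MEF. Tubb3 was not detected on any TO MEF array. That of 10 neural stem cell markers was 61.6, 59.5, 56.1 and 52.7, with 2 to 4 detected and Sox2, Fabp7, Olig1, Olig2, Pax6 and Hes5 not detected on any of these arrays, and 61.2 and 61.5 in wild-type MEF. The 12 fibroblast markers summed to 125, 124, 122 and 122, against 126 and 128. The part of these markers in the changes of Vdr, Pparg and Nr4a2 was not tested.

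Vdr was 7.58, 5.81, 4.71 and 5.19 in TO MEF at 0, 6, 12 and 24 h, with the last 2 not detected, and 6.51 and 6.64 in wild-type MEF at 0 and 24 h. The level at 0 h was the highest of the 6 and the levels at 6 h and later were the lowest, below both wild-type arrays. The trend was -2.18 ± 0.61 over 24 h (limma adjusted p = 0.0358), at least 4.35-fold at 24 h. Vdr was also the 1 receptor of 24 called as a step, that is a change between 0 h and the mean of 6, 12 and 24 h, by -2.35 ± 0.32 (limma adjusted p = 0.0221), where 0.193% of all probes were called. Another Vdr probe was 6.95 at 0 h and not detected at 5.06, 4.98 and 5.02 later, a step of -1.94 ± 0.23 (limma adjusted p = 0.00758). A further one read 5.94, 4.92, 5.89 and 4.88 and was not called. The trend call rests on the 0 h array: without it the trend was -0.57 (limma adjusted p = 0.61), and the step could not be fitted. The trend call was also lost without TO BMC at 12 h, wild-type MEF at 0 h or wild-type MEF at 24 h (limma adjusted p = 0.0532, 0.0524 and 0.0524) and with no detection filter (0.0626). The step call was lost without TO MEF at 24 h, TO BMC at 12 h or TO BMC at 24 h (limma adjusted p = 0.0506, 0.0548 and 0.0529) and with the authors' deposited values (0.0893). With the change of wild-type MEF taken off, the trend was -2.32 (limma adjusted p = 0.315), and the authors' deposited log2 values gave -3.02 (limma adjusted p = 0.0943).

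Pparg was 7.74, 7.72, 6.21 and 6.25 in TO MEF, and 5.92 and 6.17 in wild-type MEF at 0 and 24 h. The first 2 times lay above the wild-type arrays and the last 2 next to them. The trend was -1.70 ± 0.38 (limma adjusted p = 0.0138) and the level at 24 h was 2.80-fold below that at 0 h. Without the 0 h array the trend was -1.67 (limma adjusted p = 0.104), and with the wild-type change taken off it was -1.94 (limma adjusted p = 0.172). The authors' deposited values gave -1.97 (limma adjusted p = 0.0516). Of the 11 measured PPAR target genes, 3 rose and 1 fell by the trend in MEF, where 11% of all probes were called. Acadl and Slc25a20, for mitochondrial fatty acid oxidation, rose by 1.69 and 1.26 (limma adjusted p = 0.0242 and 0.0119). Lpl, the lipoprotein lipase gene, fell by 1.49 in log2 (limma adjusted p = 0.0297). As a step, Pdk4, a pyruvate dehydrogenase kinase gene, fell by 1.84 in log2 (limma adjusted p = 0.0368).

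Nr4a2, which encodes the orphan receptor NURR1 of dopamine neurons and is known as an immediate early gene, was 5.36, 5.49, 7.23 and 7.41 in TO MEF, with detection at 12 and 24 h. In wild-type MEF it was 4.93, not detected, at 0 h and 5.63, detected, after 24 h of treatment, and no NSC or BMC array detected it. In TO MEF the summed neuron markers went from 34.6 to 49.0 over the 24 h. That sum was 42.6 and 42.5 in wild-type MEF and 40.9 to 44.6 in NSC. The part of these markers in the Nr4a2 rise was not tested. The Nr4a2 trend was 2.27 ± 0.54 (limma adjusted p = 0.0173), at least 3.34-fold at 24 h. With the wild-type change taken off it was 1.57 (limma adjusted p = 0.417). Without the 24 h array it was 3.75 (limma adjusted p = 0.102), and without that at 0 h 2.24 (limma adjusted p = 0.117). The authors' deposited values gave 2.96 (limma adjusted p = 0.111). The other Nr4a genes were not detected on any array.

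Esrra and Nr2f1 were past 2-fold of 0 h in MEF and did not pass the threshold. Esrra was 8.82, 10.39, 10.46 and 10.67 in TO MEF and 9.23 and 8.66 in wild-type MEF. All 3 later arrays were above every other array of the series, and the step was 1.69 ± 0.30 (limma adjusted p = 0.0573), or 3.23-fold. Its trend was 1.56 ± 0.49 (limma adjusted p = 0.0589). Nr2f1 was 9.54, 10.60, 10.96 and 10.50 against 9.85 and 9.64 in wild-type MEF, so that the 3 later arrays lay above the other MEF arrays, with a step of 1.15 ± 0.22 (limma adjusted p = 0.0711). At 6 h, 3 of 24 receptors were past 2-fold of 0 h (Nr2f1 and Esrra higher, Vdr lower), where 2.34% of all probes were. At 12 h there were 5, with Nr4a2 and Pparg added, against 5.73%, and at 24 h 4, without Nr2f1, against 11.3%.

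**Figure D3:**
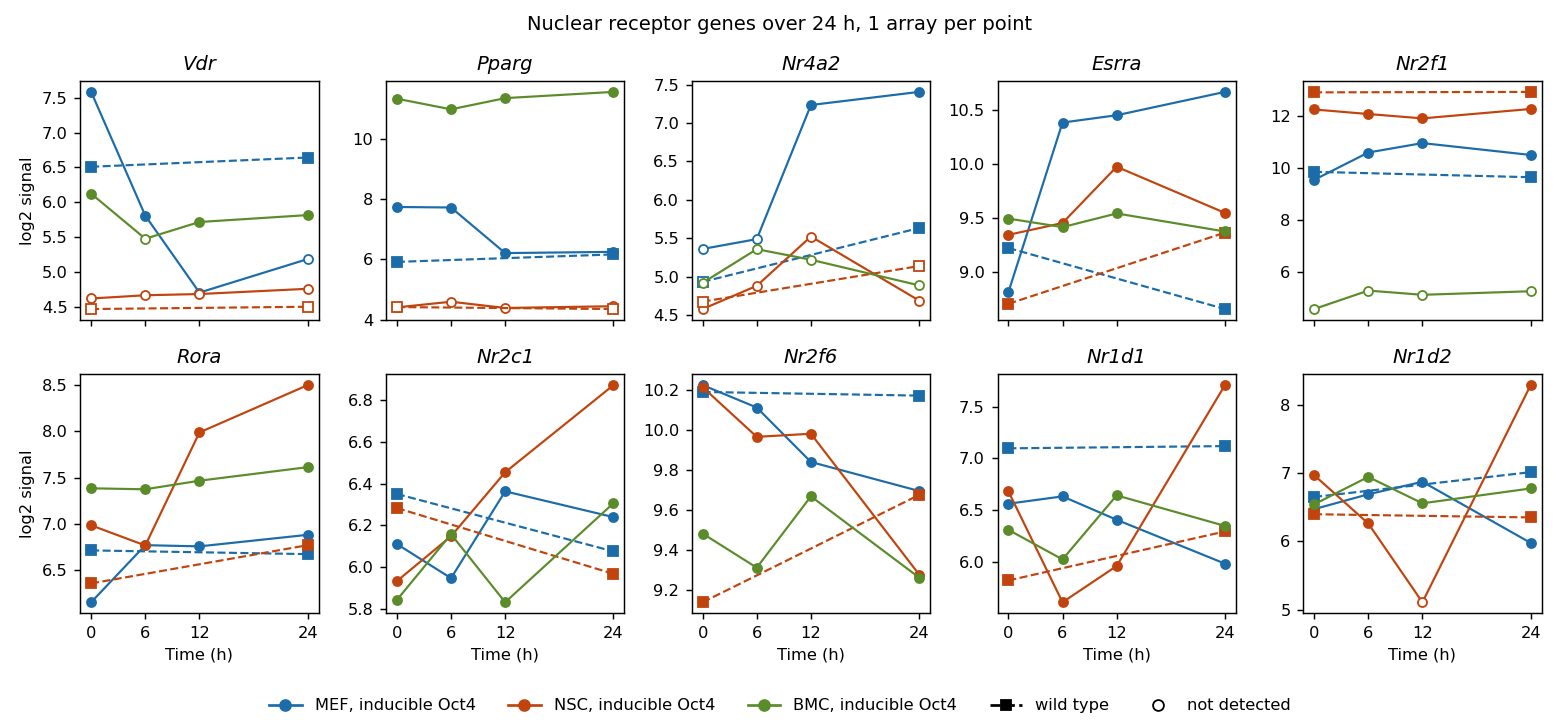
Log2 signal over time (h) of 10 receptor genes, each panel on its own scale, 1 array per point. Circles on solid lines are TO cells, squares on dashed lines are wild type, and open symbols were not detected. In MEF, Vdr lies below both wild-type squares from 6 h on, and Esrra above them. In NSC, Nr1d1 and Nr1d2 are lowest at 6 or 12 h and highest at 24 h.

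In induced NSC the receptor genes Rora and Nr2c1 rose and Nr2f6 fell. These were 3 of 24 receptors by the trend (limma adjusted p below 0.05), where 23.3% of all probes passed, and the median over the 24 was 0.17 against 0.01 over all probes. An unadjusted p below 0.05 for the trend was seen for 9 of the 24 receptors and 34.4% of all probes. No receptor passed as a step by limma, where 0.206% of all probes did, and 0 of the 24 had an unadjusted p below 0.05 for it, against 8.47% of all probes. Past 2-fold of 0 h were Nr1d1 alone at 6 h (3.14% of all probes), Rora and Nr1d2 at 12 h (7.68%) and Nr1d1, Nr1d2 and Rora at 24 h (16.5%). Wild-type NSC had 0 of 24 past 2-fold at 24 h, where 1.51% of all probes were.

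Rora was 6.99, 6.77, 7.99 and 8.50 in TO NSC and 6.36 and 6.77 in wild-type NSC, so the 12 and 24 h arrays lay above all others. The trend was 1.74 ± 0.33 (limma adjusted p = 0.00273), or 2.85-fold at 24 h. With the wild-type change taken off it was 1.33 (limma adjusted p = 0.124), and without the 24 h array 2.0 (limma adjusted p = 0.159). Nr2c1, which encodes the orphan receptor TR2, was 5.93, 6.15, 6.45 and 6.87, against 6.28 and 5.97 in wild type. Its trend was 0.95 ± 0.25 (limma adjusted p = 0.0171), or 1.92-fold at 24 h, and with the wild-type change taken off 1.27 (limma adjusted p = 0.0576). Nr2f6 was 10.21, 9.97, 9.98 and 9.28, and 9.14 and 9.68 in wild type, so the 24 h array lay between the wild-type arrays. Its trend was -0.90 ± 0.26 (limma adjusted p = 0.0263), and with the wild-type change taken off -1.44 (limma adjusted p = 0.0342). Leaving out the 24 h array ended the Nr2c1 and Nr2f6 calls, at 1.04 (limma adjusted p = 0.355) and -0.46 (limma adjusted p = 0.755), and leaving out the 0 h array ended both too (limma adjusted p = 0.0755 and 0.0739). With the authors' deposited values the Nr2f6 trend was -0.91 (limma adjusted p = 0.0505).

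Nr1d1 and Nr1d2 encode REV-ERB alpha and beta, heme-binding repressors of the circadian clock. Nr1d1 was 6.68, 5.61, 5.96 and 7.71 in TO NSC and 5.82 and 6.29 in wild type. Nr1d2 was 6.97, 6.26, 5.11 (not detected) and 8.29, and 6.40 and 6.35 in wild type. Both had their lowest value at 6 or 12 h and their highest at 24 h, which is the highest of any array for each. The fitted straight lines gave trends of 1.34 ± 0.55 (limma adjusted p = 0.102) and 1.39 ± 0.84 (limma adjusted p = 0.28). The Nr1d2 trend depended on single arrays, with -3.73 without TO NSC at 24 h (limma adjusted p = 0.0169) and 3.23 without TO NSC at 0 h (limma adjusted p = 0.0225). A dimmer Nr1d1 probe, detected on 2 of 17 arrays, was 4.86, 4.81, 4.56 and 6.82 in TO NSC, with detection at 24 h alone, and its trend was 1.99 ± 0.50 (limma adjusted p = 0.0127).

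Of 10 measured clock genes that REV-ERB and ROR proteins are known to bind or accompany, 1 rose and 1 fell by the NSC trend, where 23.3% of all probes were called. Dbp, a clock output gene, was 9.17, 8.40, 8.23 and 11.30 in TO NSC and 9.24 and 8.83 in wild type, with a trend of 2.35 (limma adjusted p = 0.032). Bhlhe40, a clock repressor gene, fell by 1.32 in log2 (limma adjusted p = 0.02). Tef was 8.78, 8.29, 7.85 and 9.73 and Per3 was detected only at 24 h among the NSC arrays, at 6.16, neither with a call. Both are outside the naming rule for related lists and do not stand for the list. Apart from Dbp and Bhlhe40, no measured clock gene had a call by the NSC trend. In MEF, Arntl fell by 0.96 and Bhlhe40 by 1.29 in log2 (limma adjusted p = 0.0275 and 0.0386), 2 of 10 where 11% of all probes were called. The sampling hour and the time since the last change of medium are not given in the labels, and their part in these values was not tested.

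**Figure D4:**
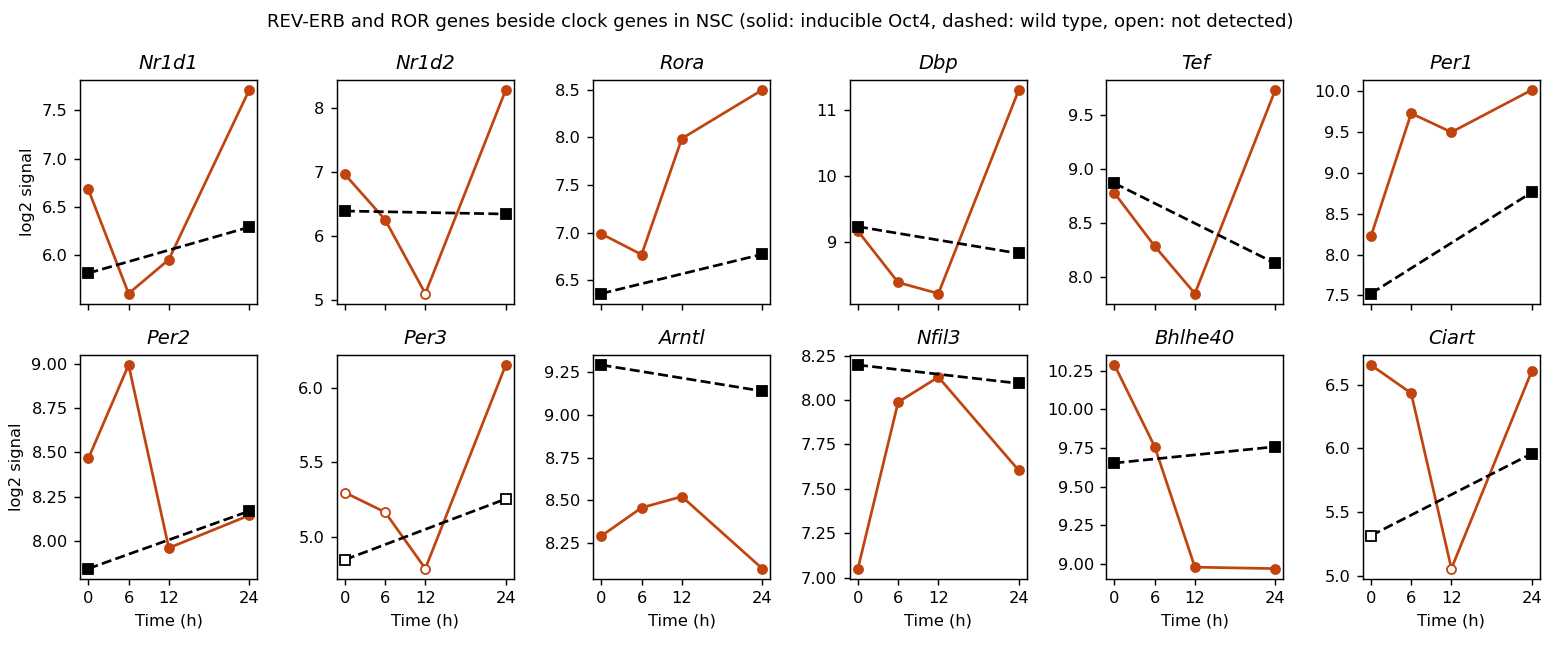
Log2 signal over time (h) in NSC of 3 receptor genes and 9 clock genes, each panel on its own scale, 1 array per point. Solid orange lines are TO NSC, dashed black lines wild-type NSC, and open symbols were not detected. Nr1d1, Nr1d2, Dbp and Tef are lowest at 6 or 12 h and highest at 24 h, with Dbp going from 8.23 at 12 h to 11.30 at 24 h. Dbp and Tef do not stand for the clock genes, of which 1 of 10 measured rose and 1 fell by the NSC trend.

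In induced BMC no receptor passed by the trend or the step in limma (0.772% and 0.0322% of all probes did), and 0 of 24 had an unadjusted p below 0.05 for the trend, against 5.85% of all probes. For the step it was 2 of 24, against 2.23%. None was past 2-fold of 0 h at 6, 12 or 24 h, where 0.669%, 0.856% and 2.0% of all probes were. Nr1h3 lay within 11.66 to 11.96 and Pparg within 10.97 to 11.55, on arrays whose summed blood marker signal went from 103 to 87.8. Vdr in BMC was 6.12, 5.48 (not detected), 5.72 and 5.82, and Rora 7.39, 7.38, 7.47 and 7.61. Without a wild-type BMC array a treatment effect cannot be told apart from one of Oct4.

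The calls made in 1 cell type were not shown to differ between cell types. For the probe that stands for each gene, 0 of 24 receptors passed the difference of trends by limma between NSC and MEF (11% of all probes), BMC and MEF (3.44%) or BMC and NSC (10.7%), with unadjusted p below 0.05 for 7, 5 and 2 of the 24 against 26%, 16.9% and 26.2% of all probes. The difference of NSC minus MEF was 2.32 for Vdr (limma adjusted p = 0.105), 1.67 for Pparg (0.068), -2.16 for Nr4a2 (0.0906) and 1.14 for Rora (0.143). Nr5a2 was not detected on any TO array at any time, with trends of -0.04, -0.23 and 0.12 in MEF, NSC and BMC. Nr6a1 was detected at 6.00 in TO MEF at 6 h, 5.72 in TO BMC at 6 h and 5.75 in TO NSC at 24 h, against 8.85 in ESC, with no call. Rarg in TO NSC was not detected at 0 and 6 h and was 5.65 and 5.59 at 12 and 24 h, also with no call.

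**Figure D5:**
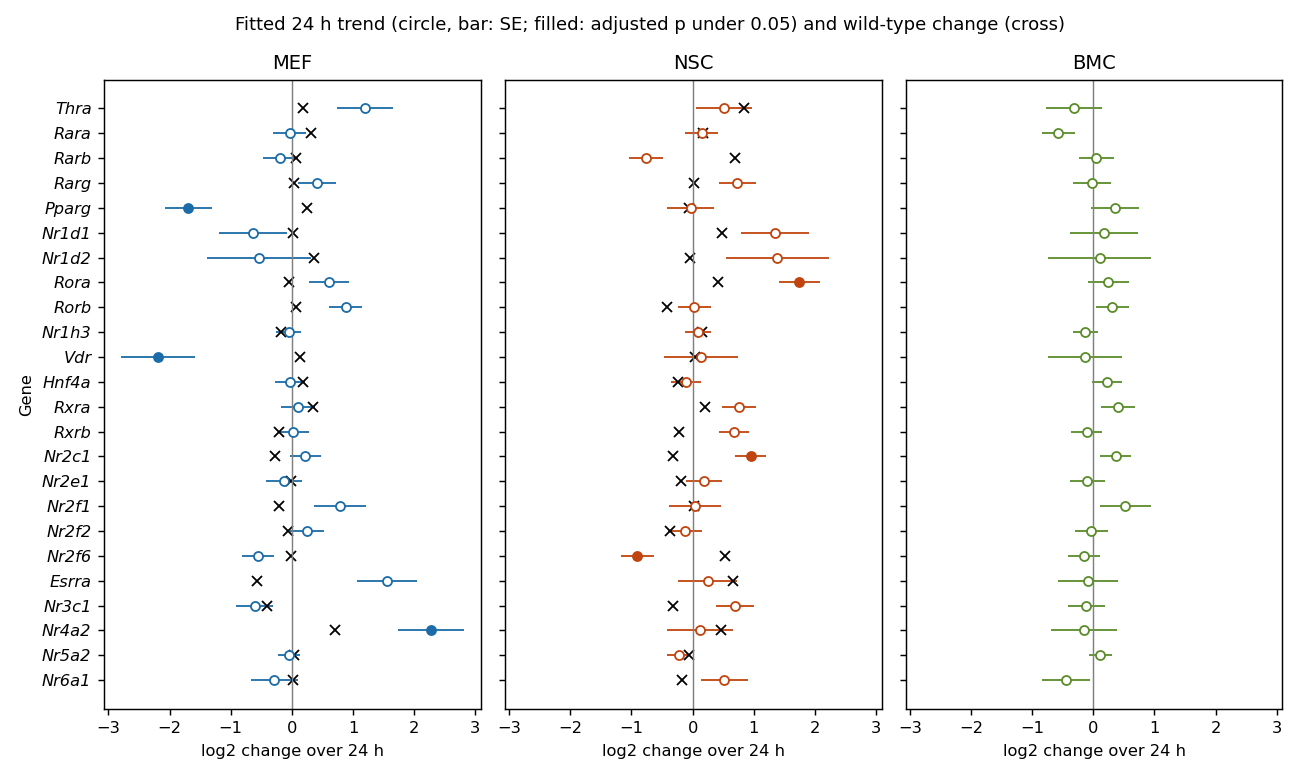
Fitted log2 change over 24 h of the 24 receptor genes in TO MEF, NSC and BMC (circles, with bars of 1 SE). Filled circles have an adjusted p below 0.05, and crosses give the change of wild-type cells after 24 h of treatment. The filled points are Pparg, Vdr and Nr4a2 in MEF and Rora, Nr2c1 and Nr2f6 in NSC.

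Genes of proteins that work with the receptors were counted by the same trend, which called 11% of all probes in MEF and 23.3% in NSC. Of 12 measured co-activator genes, 2 rose and 1 fell in MEF, and 1 rose and 2 fell in NSC. Carm1, an arginine methyltransferase gene, fell in both, by 0.87 in MEF and 0.84 in NSC in log2 (limma adjusted p = 0.025 and 0.0172). The acetyltransferase gene Kat2b rose by 1.45 in MEF (limma adjusted p = 0.0202), and the methyltransferase gene Prmt1 fell by 1.37 on the log2 scale in NSC (limma adjusted p = 0.00172). Of 6 co-repressor genes, 0 passed in MEF and 1 rose in NSC, Hr, which encodes Hairless, a partner of the vitamin D receptor and ROR proteins, by 1.68 (limma adjusted p = 0.00678). Hr went from 5.72 to 7.50 in TO NSC and was 7.07 and 7.23 in wild type.

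Of 6 measured genes for retinoid supply and breakdown, 1 fell in MEF, the retinoic acid binding protein gene Crabp1, by 1.12 in log2 (limma adjusted p = 0.00328), and 1 fell in NSC, the fatty acid and retinoic acid carrier gene Fabp5, by 1.94 (limma adjusted p = 0.000103). Of 12 chaperone genes of the steroid receptor complex, 0 passed in MEF and 5 fell in NSC, where 11% and 23.3% of all probes were called, among them Ppid by 1.55 and Ptges3 by 1.42 in log2 (limma adjusted p = 0.00437 and 0.000708). The steroid receptor gene Nr3c1 was at background on most arrays, at 4.58 to 5.65. Of 9 LXR target genes, 0 rose and 1 fell in MEF (Lpl), and 2 rose and 2 fell in NSC. Apoe in TO NSC was 10.48, 9.40, 11.37 and 13.56, a trend of 3.64 (limma adjusted p = 0.0012), against 12.28 and 11.98 in wild type, while Lpl fell by 3.09 and Scd1 by 1.49 in log2 (limma adjusted p = 0.000233 and 0.00592). Of the 11 PPAR target genes, 2 rose in NSC (Cpt2 and Slc25a20, by 0.99 and 0.85) and 1 fell (Lpl). None of these lists had a call in BMC by the trend, where 0.772% of all probes had one. The other lists were those of vitamin D, glucocorticoid and thyroid hormone enzymes, with 2 genes measured and 0 called by the trend in any cell type.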

How the data were processed

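Per the labels' protocols, RNA was amplified with the Illumina TotalPrep kit and hybridised to mouse BeadArrays. The raw probe intensity and detection p-value columns were deposited by the authors, and the series' value table holds the authors' log2 values, which the submitters' processing notes connect with BeadStudio 3.2, RMA and lumi. All columns were mapped to a labelled array; the time of the Ctrl_MEF_24 array was taken from its title, since its source field differs.

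From the intensities, background was corrected with limma 3.58.1 (R 4.3.3) by normexp using the negative controls that the detection p-values imply and an offset of 16, followed by log2 and quantile normalization. The offset makes fold changes of dim genes too small. Of 25697 probes, 15543 detected (p below 0.01) on at least 1 of 17 arrays were tested. The brightest probe stands for a gene. Probes were named through GEO's platform annotation.

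limma fits used 16 somatic arrays (a mean per line with a slope or step per TO line) or the 8 arrays without induced Oct4 (a mean per cell type). TO MEF, TO NSC and TO BMC at 0 h count among the latter. p-values were Benjamini-Hochberg adjusted over all tested probes. Where the dim side was undetected, "at least" folds use the lowest detected signal of each array. Named receptors are those called or with a log2 range of 2 or more, and from related lists the 2 with the largest called trends per direction. The fits were tested on simulated data. The members and lists were chosen with earlier results of these data known.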

Additional observations from a re-analysis of the deposited data

Results flagged for a closer look

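The dimmer of the 2 Nr1d1 probes differed between cell types in its 24 h trend, by 2.46 ± 0.71 for NSC minus MEF (limma adjusted p = 0.0431). In TO NSC it was 4.86, 4.81, 4.56 and 6.82 at 0, 6, 12 and 24 h, and in TO MEF 5.43, 5.16, 5.10 and 4.92. It was detected on 2 of 17 arrays, TO NSC at 24 h and wild-type MEF at 0 h. The brighter Nr1d1 probe did not pass for the same difference.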

How the results depend on the processing

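No paired analysis was possible because each condition has 1 array and all arrays carry the same replicate number. BeadChip as a block was not run, since the column headers name no chip; the step could not be fitted without a 0 h array, nor the BMC and ESC levels without theirs.

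The MEF trend called 1 receptor (Rorb) with the authors' values and 0 after subtraction of the wild-type change. The NSC trend called 5 with any probe of a gene counted. The MEF step called 3 without background correction, 3 with an offset of 50, 0 with the authors' values and 2 without a detection filter. Each difference of trends called 1 without background correction and 1 with an offset of 50, and NSC minus MEF called 1 with any probe counted. The ESC level called 9 without background correction.

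Leaving out each array in turn gave 0 to 4 calls for the MEF trend, 1 to 5 for NSC and 0 to 0 for BMC. The steps gave 0 to 5, 0 to 1 and 0 to 0. The differences of trends gave 0 to 3 (NSC minus MEF), 0 to 1 (BMC minus MEF) and 0 to 2 (BMC minus NSC), and the levels 7 to 10 (NSC minus MEF), 6 to 7 (BMC) and 13 to 17 (ESC). Without TO NSC at 24 h, Nr1d2 reversed: its NSC trend was -3.73 (up to 3.23 without TO NSC at 0 h), its NSC minus MEF difference -3.19 (up to 3.76) and its BMC minus NSC difference 3.83. That array holds its highest value.

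Counts past 2-fold were recomputed under settings chosen after seeing the data. In MEF at 6, 12 and 24 h they were 1, 3 and 2 without background correction and 5, 8 and 7 with the authors' values. In NSC they were 0, 0 and 1 without background correction, 0, 1 and 2 with an offset of 50 and 1, 6 and 9 with the authors' values; median scaling gave 1 at 12 h. In BMC the authors' values gave 3, 1 and 2, and in wild-type MEF and NSC 1 and 4. Receptors near background limit these counts.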
